A study of Mus musculus with 8 samples.

Results

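Imprinted genes were followed in the left ventricle, the main pumping chamber of the heart. The set is a list of 42 mouse imprinted genes and host genes in 22 domains, looked up in the count table by the Ensembl identifier that GENCODE M21 gives each symbol. Of the 42, 39 had a row among the 38293 identifiers of the table, and the levels of Kcnq1ot1, Snrpn and Peg13 are not analysed here. A filter on low counts kept 29 of the 39 for testing and left out 10. Poly(A) RNA was sequenced from 8 hearts of untreated male mice aged 8 weeks on the C57BL/6 background, 4 wild type (WT, replicates 1 to 4) and 4 labelled mORF4/NBDY KO (replicates 5 to 8). Nbdy, also called mORF4, encodes a microprotein of the mRNA decapping machinery. What the KO allele lacks, and in which cells, is not told by the labels, and the Nbdy transcript itself was still measured in KO, at 9.92 ± 0.412 CPM against 19.4 ± 0.470 in WT (SD, n = 4 each). CPM are a gene's counts divided by the scaled total of its library, per 1000000 counts.

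An imprinted gene is expressed mainly from the copy inherited from one parent. DNA methylation laid down in the egg or the sperm marks a control region in each domain, and that mark is kept through development, in part by ZFP57, which in the mouse binds the methylated hexamer TGCCGC together with TRIM28. Many imprinted genes act on growth: paternally expressed Igf2 drives fetal growth, while maternally expressed Igf2r, Grb10, Cdkn1c and H19 restrain it, and much of this network falls in level after birth, in the heart as in other organs. Several members are retrogenes, copies of an mRNA that landed in an intron of a host gene and took on paternal expression: Zrsr1 inside Commd1, Mcts2 inside H13 and Nap1l5 inside Herc3. The counts add up both parental copies, so they show the level of a gene and not which copy it came from.

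The promoters of these 3 retrogenes, and that of Commd1, are shown because the retrogene that varied most between hearts and its steady host share a locus. Each window runs from 250 bases before to 50 bases after a RefSeq start (GRCm38.p6), 5′ to 3′ on the strand of the gene, and capitals mark TGCCGC or its reverse complement GCGGCA.
Zrsr1, chr11:22971755-22972054, plus strand: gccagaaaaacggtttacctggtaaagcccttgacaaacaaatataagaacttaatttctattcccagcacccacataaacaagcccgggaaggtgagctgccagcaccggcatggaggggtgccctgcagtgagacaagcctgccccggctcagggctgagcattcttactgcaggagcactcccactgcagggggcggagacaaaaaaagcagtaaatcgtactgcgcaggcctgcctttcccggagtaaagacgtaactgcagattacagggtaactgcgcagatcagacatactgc
Commd1, chr11:22982235-22982534, minus strand: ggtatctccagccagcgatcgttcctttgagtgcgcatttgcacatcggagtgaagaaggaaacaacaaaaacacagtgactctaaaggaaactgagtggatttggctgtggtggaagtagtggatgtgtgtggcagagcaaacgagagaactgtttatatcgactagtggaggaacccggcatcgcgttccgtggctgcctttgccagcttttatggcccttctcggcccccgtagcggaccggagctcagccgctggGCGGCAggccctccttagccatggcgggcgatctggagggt
Mcts2, chr2:152686898-152687197, plus strand: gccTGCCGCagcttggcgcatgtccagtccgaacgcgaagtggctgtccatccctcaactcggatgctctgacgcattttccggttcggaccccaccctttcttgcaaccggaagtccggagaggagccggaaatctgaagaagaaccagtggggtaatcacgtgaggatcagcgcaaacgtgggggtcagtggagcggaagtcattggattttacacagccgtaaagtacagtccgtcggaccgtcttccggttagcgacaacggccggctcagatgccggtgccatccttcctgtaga
Nap1l5, chr6:58907077-58907376, minus strand: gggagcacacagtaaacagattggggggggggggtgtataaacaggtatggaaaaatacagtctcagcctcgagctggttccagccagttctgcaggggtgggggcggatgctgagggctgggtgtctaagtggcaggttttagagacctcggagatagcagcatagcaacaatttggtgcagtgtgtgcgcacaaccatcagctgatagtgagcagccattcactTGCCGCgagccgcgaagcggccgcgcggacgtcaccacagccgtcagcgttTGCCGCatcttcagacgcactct
The Zrsr1 window held 10 CpG dinucleotides and no TGCCGC on either strand, whereas the Commd1 window held 18 CpG and 1 hexamer. A second RefSeq start of Commd1, at chr11:22972817-22973116 within the body of Zrsr1, had 17 CpG and no hexamer. Mcts2 had 25 CpG and 1 hexamer, and Nap1l5 had 17 CpG and 2. Among 32851 promoters in the RefSeq table, the median was 7 CpG and 11.6% held TGCCGC on either strand. Promoters were found for 34 of the 42 listed genes, Kcnq1ot1 and Snrpn included, and 14 of their 52 windows, from 13 genes, held the hexamer. Windows of a gene can overlap, as do those of Mest that start at 30737800 and 30737803, both with the hexamer. The share over all promoters was not matched for CpG content, so it is no measure of enrichment. A match describes letters in these 300 bases and is not a measured binding site.

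Most counts of the listed genes came from Gnas, the gene of the stimulatory G protein alpha subunit, which couples adrenergic receptors to cyclic AMP. Counts per gene pool all transcripts of Gnas, whose RefSeq starts lie apart, so they are not those of the alpha subunit transcript alone. Gnas alone held 50.4 to 63.7% of the counts of all members, which together made up 0.195 to 0.27% of each library. Its level was 1419, 1414, 1231 and 1329 CPM in the WT hearts (replicates 1 to 4, in that order here and below) and 1223, 1428, 1357 and 1423 CPM in the KO hearts (replicates 5 to 8). The 8 hearts differed by 1.17-fold at most, and the groups overlapped. Opposite-strand transcripts cover 22.0% of its exon bases, and whether reads were counted by strand is not given in the sources used here.

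Per kilobase of exon, the mean level over the 8 hearts was 121 CPM for Gnas, 48.8 for Zrsr1 and 28.7 for Cdkn1c, the cyclin-dependent kinase inhibitor p57. The place of Zrsr1 holds for the mean alone, since its hearts ran from 4.21 to 122 CPM per kilobase and 3 of them lay below every heart of Cdkn1c. Blcap, host of Nnat, followed at 12.8 CPM per kilobase, then Mcts2 at 12.1, Commd1 at 11.8, Grb10 at 11.2, Igf2r at 10.4 and Igf2 at 9.31. The hearts of neighbours in this order from Blcap to Igf2 overlapped, so their order is not fixed by these data. At the low end of the tested genes stood Ddc with 0.444, Mirg with 0.217 and Peg10 with 0.138 CPM per kilobase. The growth-restraining genes Cdkn1c, Grb10 and Igf2r were thus measured well above the filter in adult ventricle, as was Igf2.

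**Figure D1:**
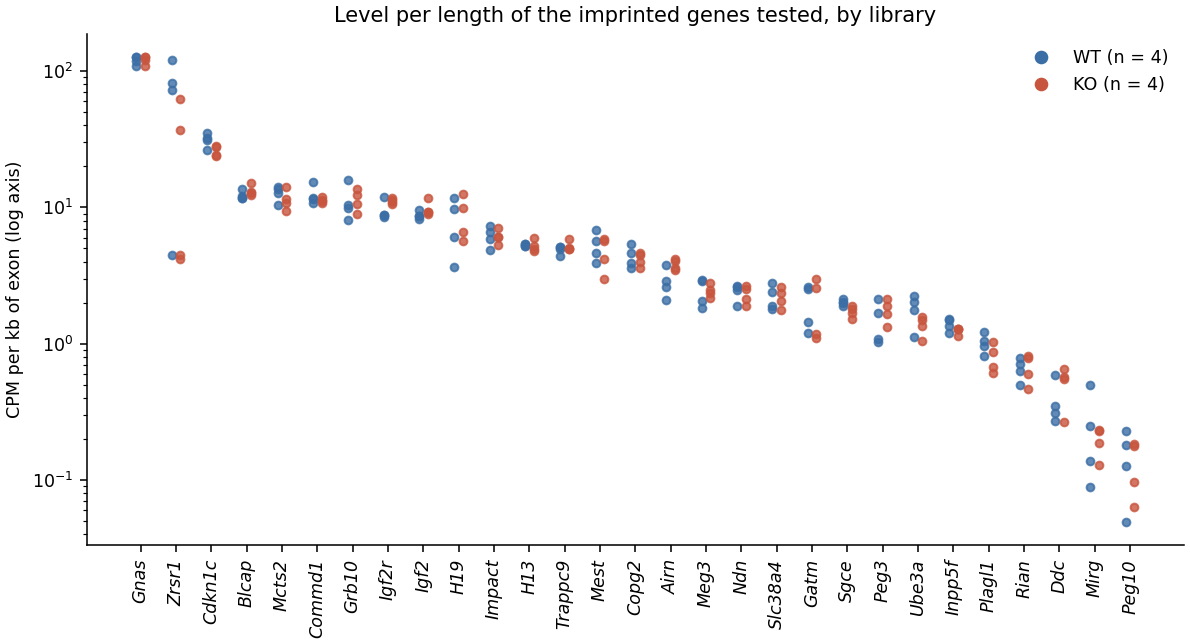
Level of each of the 29 tested imprinted genes, in CPM per kilobase of exon on a log axis, ordered by the mean; each point is 1 heart (4 WT, 4 KO). Gnas stands highest with a mean of 121, most genes form a narrow column of points, and the points of Zrsr1 fall into a high set and a low set that each hold WT and KO hearts.

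Zrsr1, a retrogene of the splicing factor gene Zrsr2 and expressed from the paternal copy in mouse, was the member that varied most between hearts. The WT hearts held 4610, 219, 4028 and 7110 of its counts, and the KO hearts 285, 2329, 3601 and 216. In CPM this was 370.2, 20.2, 329 and 546 in WT and 19.9, 165, 282 and 18.9 in KO. WT replicate 2 and KO replicates 5 and 8 were low (3 hearts), and the other 5 were high. The low hearts lay within 1.07-fold of each other, inside their 95% Poisson intervals (17.6 to 23.0, 17.7 to 22.4 and 16.5 to 21.6 CPM), while the high hearts spread over 3.30-fold. Between the highest low heart and the lowest high heart lay an 8.19-fold gap, and the extremes were 28.9-fold apart. These intervals cover counting error only, and the split was noticed in the values, so it carries no test.

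Zrsr1 (ENSMUSG00000044068) lies on chromosome 11 from 22972005 to 22976496 on the plus strand of GRCm38. The body of Commd1, which runs on the minus strand, encloses it. Commd1, a regulator of copper transport and NF-kB with a maternal bias described in mouse brain, did not follow it. Commd1 measured 63.6, 91.2, 68.2 and 69.3 CPM in WT and 66.4, 67.7, 63.5 and 70.4 CPM in KO. The hearts low in Zrsr1 thus had 91.2, 66.4 and 70.4 CPM of Commd1, and those high in Zrsr1 had 63.5 to 69.3. Per kilobase, the ratio of Zrsr1 to Commd1 ran from 0.292 in WT replicate 2 to 10.4 in WT replicate 4. The parent gene Zrsr2 had between 13.3 and 22.3 CPM in the 8 hearts. No 50-base stretch of the 4443 in Zrsr1 transcripts occurs, in the same orientation, in a transcript of another annotated gene. On the opposite strand, Commd1 exons overlap 9.17% of the Zrsr1 exon bases, and whether reads were counted by strand is not given.

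**Figure D2:**
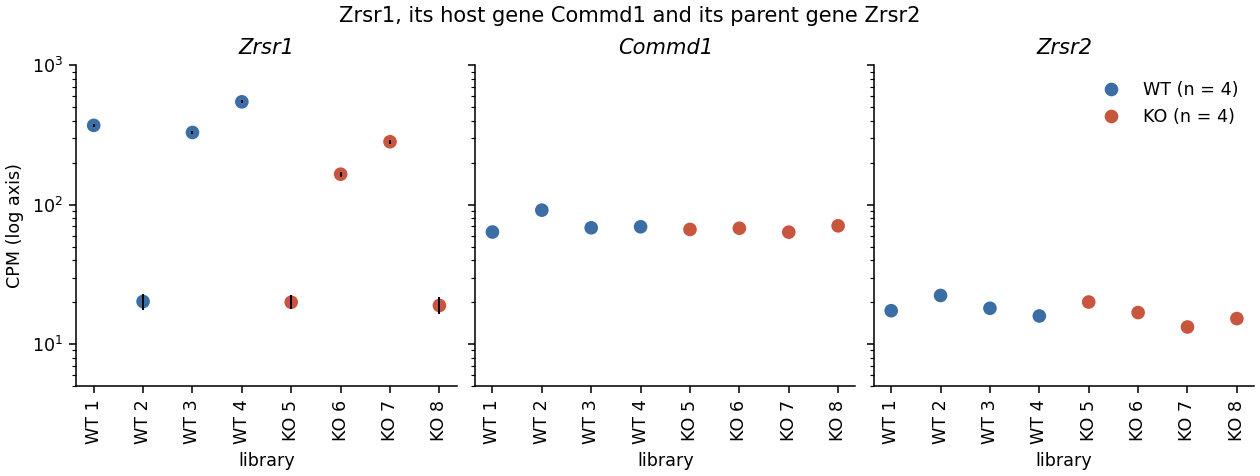
CPM on a log axis for Zrsr1, its host Commd1 and its parent gene Zrsr2 in each heart; the bars on Zrsr1 are 95% Poisson intervals, which cover counting error only. Zrsr1 sits near 20 CPM in WT replicate 2 and KO replicates 5 and 8 and at 165 to 546 CPM elsewhere, while Commd1 stays between 63.5 and 91.2 CPM.

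The range of Zrsr1 over the 8 hearts was 4.84 on the log2 CPM scale, which placed it at rank 8 among 8668 genes with a mean of at least 10 CPM, where the median range was 0.56. The 7 genes with a wider range were Gm11942, Rps3a3, Trim6, Atf3, Hspa1a, Otud1 and Myh7, named after their values were seen. Gm11942, Rps3a3 and Trim6 were also low in some hearts and high in others, in sets of hearts that differed from that of Zrsr1. KO replicate 5 was low for each of them, as for Zrsr1. WT replicate 4 was also low for each of them, at 0.461, 1.69 and 1.92 CPM, but was the highest heart of Zrsr1. Trim6 was high only in WT replicate 2 (56.5 CPM) and KO replicate 6 (18.6 CPM). Gm11942 had 0.245 CPM in WT replicate 3, 0.461 in WT replicate 4 and 0.420 in KO replicate 5, and 104 to 278 CPM in the other 5. The next member in this ranking was H19 at rank 135, with a range of 1.78. Mirg and Peg10, which lie below 10 CPM and were not ranked, had ranges of 2.23 and 1.80. A split was set as a gap of more than 2 on the log2 scale that also took up most of the range, and only Zrsr1 met it. Apart from Mirg, the other tested members had a whole range below 2, so this rule could not pick out smaller splits in them. Gatm, for example, had 4.34, 7.83, 3.59 and 7.53 CPM in WT and 3.29, 3.55, 8.94 and 7.70 in KO. Its widest gap was 0.77 in a range of 1.40 on the log2 scale.

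**Figure D3:**
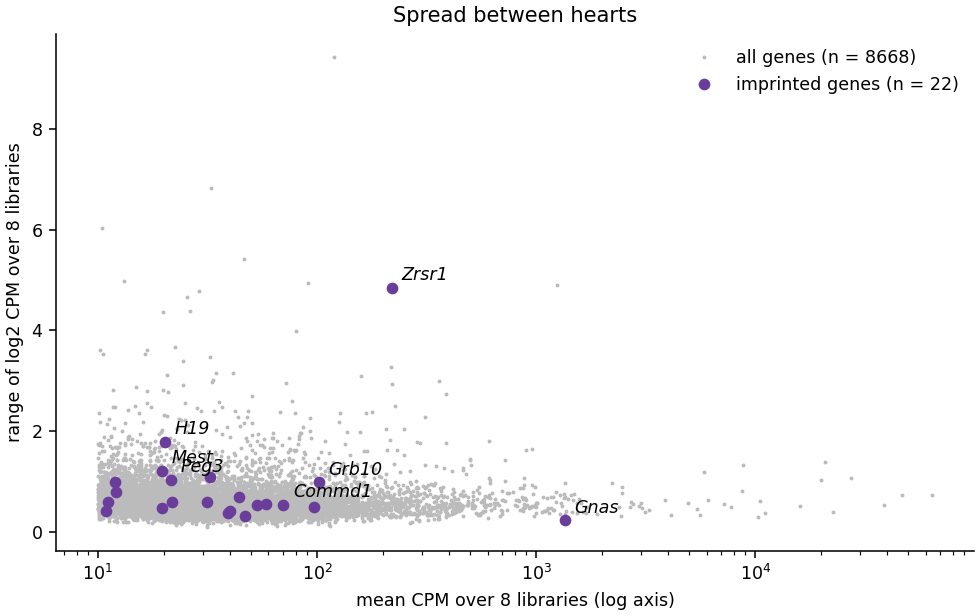
Range of log2 CPM over the 8 hearts against mean CPM (log axis) for 8668 genes with a mean of at least 10 CPM; grey points are all genes and purple points the 22 imprinted genes among them. Zrsr1 stands at 4.84, far above the other imprinted genes, of which H19 comes next at 1.78.

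The comparison of KO with WT asked whether the level of any imprinted gene differed between hearts labelled KO and WT, and none passed. In edgeR's quasi-likelihood test 0 of 29 tested members had an adjusted p under 0.05, beside 0.0225% of all 13336 genes tested (3 genes, 0.015% higher and 0.0075% lower in KO). DESeq2 and limma-voom also called 0 members. At an unadjusted p under 0.05 there were 2 members by each of the 3 tools, beside 6.4% of all genes by edgeR. No tested member had KO and WT hearts that did not overlap, beside 4.12% of all genes (2.14% with KO above and 1.98% with KO below). The log2 fold change was positive for 13 members and negative for 16, with a median of -0.01 (all genes -0.0032). Its median size without sign was 0.16, beside 0.13 for all genes, and the median SE of the members was 0.17. In simulated data with 67 genes changed by 1.5-fold and 67 by 2-fold, the test recovered 26.9% and 77.6% of them. Differences of such sizes can thus go uncalled. Many more genes changed there than were called here, which eases the adjusted threshold, so these shares may be too high for the members. A difference in whole tissue can come from fewer cells of a type or from less RNA per cell, which cannot be told apart here.

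**Figure D4:**
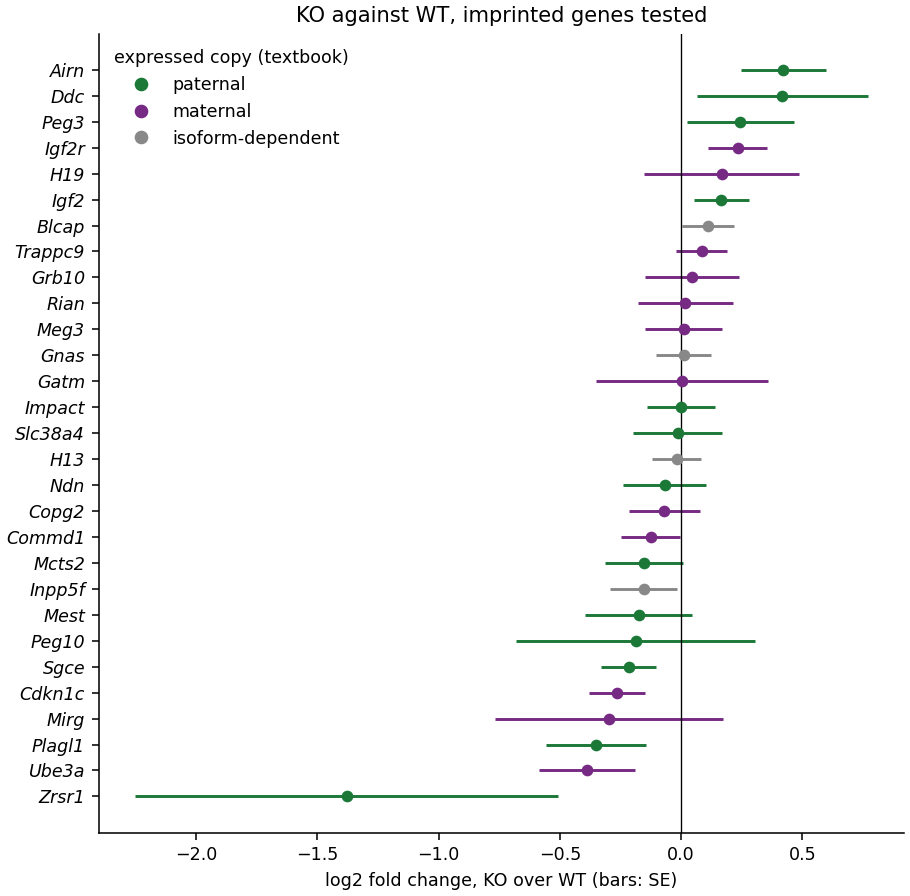
Log2 fold change of KO over WT for the 29 tested imprinted genes with its SE (bars), coloured by the copy that textbooks give as expressed. Values run from -1.38 for Zrsr1, with an SE of 0.87, to 0.42 for Airn, and 0 of the 29 passed an adjusted p of 0.05.

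Split by the copy usually expressed, 13 tested genes were paternal, with 4 positive and 9 negative values and a median of -0.07. The 12 maternal genes had 7 positive and 5 negative values and a median of 0.0075. Gnas, Blcap, Inpp5f and H13, whose imprinting depends on the isoform, ran from -0.16 to 0.11. These classes come from other mouse tissues as well, and Ube3a, Commd1, Trappc9, Gatm and Ddc are known as imprinted in some tissues or transcripts only.

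For Zrsr1, the fold change was the widest in size and the least precise among the members: WT averaged 316 ± 219 CPM and KO 122 ± 127 (SD, n = 4 each). By edgeR the difference on the log2 scale was -1.38 ± 0.87 (SE, adjusted p = 0.797). Low hearts were found in both groups. The value was -2.21 without KO replicate 7 and -0.99 without WT replicate 4. For Commd1 it was -0.13 ± 0.12 (adjusted p = 0.874 in edgeR), and without WT replicate 2 it was -0.0013.

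Among the growth genes, the receptor Igf2r, which removes Igf2 from the cell surface and takes it to lysosomes, measured 82.5, 79.1, 81.9 and 111 CPM in WT and 99.3, 109, 106 and 102 in KO. WT replicate 4 alone stood above all KO hearts, and the other 3 WT hearts stood below them. By edgeR the log2 fold change came to 0.23 ± 0.12 (SE, adjusted p = 0.783) and 0.35 without WT replicate 4. Airn, the antisense non-coding RNA that silences the paternal Igf2r copy in mouse, had 13.7, 7.56, 10.5 and 9.37 CPM in WT and 12.4, 15.1, 12.9 and 14.6 in KO. It had the smallest p of the members, with a log2 fold change of 0.42 ± 0.17 (SE, unadjusted p = 0.0317, adjusted p = 0.759 in edgeR). WT replicate 1 lay among the KO hearts, and over the alternatives the adjusted p of Airn ran from 0.274 to 0.968. The gene bodies of Airn and Igf2r overlap on opposite strands, but their annotated exons do not.

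Igf2, the fetal growth factor, measured 49.7, 46.9, 49.7 and 54.5 CPM in WT and 53.3, 67.5, 53.1 and 51.3 in KO. KO replicate 6 stood above the rest and the other hearts overlapped. By edgeR the log2 fold change came to 0.16 ± 0.11 (SE, adjusted p = 0.811), and 0.06 without KO replicate 6. On the same strand, 62.8% of the exon bases of Igf2 also belong to Gm49394, so the level of Igf2 depends on how shared reads were counted. H19, the maternally expressed non-coding RNA next to it, ran from 8.94 CPM in WT replicate 2 to 31.1 CPM in KO replicate 6, and its log2 fold change of 0.17 ± 0.32 became -0.07 without that KO heart.

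Cdkn1c measured 71.9, 53.8, 65.7 and 63.7 CPM in WT and 56.98, 49.03, 49.5 and 57.1 in KO. Of the WT hearts, 3 lay above all KO hearts and WT replicate 2 lay among them. The log2 fold change of Cdkn1c was -0.26 ± 0.11 (SE, unadjusted p = 0.0389, adjusted p = 0.772 in edgeR). An opposite-strand transcript, Gm44732, covers 30.7% of its exon bases. Grb10, an adaptor that inhibits insulin and IGF receptors, had 89.4, 144, 93.9 and 73.0 CPM in WT and 81.0, 96.1, 112 and 124 in KO. WT replicate 2 was highest and WT replicate 4 lowest, and the log2 fold change of 0.04 ± 0.19 ranged from -0.08 to 0.27 as single hearts were left out.

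Ddc, the decarboxylase beside Grb10 with a paternal transcript known in mouse heart, was low throughout, with 1.20, 1.38, 1.55 and 2.61 CPM in WT and 1.19, 2.55, 2.90 and 2.45 in KO. KO replicate 5 was the lowest heart and KO replicate 7 the highest, and edgeR gave a log2 fold change of 0.42 ± 0.35 (SE, adjusted p = 0.839), or 0.71 without WT replicate 4. Plagl1, the zinc finger factor Zac1 that in mouse acts on other genes of the imprinted network, measured 6.34, 7.465, 9.56 and 8.22 CPM in WT and 5.25, 6.74, 8.00 and 4.73 in KO. The groups overlapped, with a log2 fold change of -0.35 ± 0.21 (SE, adjusted p = 0.790 in edgeR). Peg3, a paternally expressed zinc finger protein, had 28.1, 14.5, 22.3 and 13.7 CPM in WT and 25.3, 28.2, 22.0 and 17.6 in KO. For Peg3 edgeR gave a log2 fold change of 0.24 ± 0.22 (SE, adjusted p = 0.863), or 0.47 without WT replicate 1 and 0.10 without WT replicate 4.

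Sgce, epsilon-sarcoglycan of the dystrophin-associated complex, measured 19.9, 22.4, 20.99 and 21.35 CPM in WT and 16.2, 17.8, 19.9 and 18.99 in KO. The groups met only at WT replicate 1 and KO replicate 7, and edgeR gave a log2 fold change of -0.22 ± 0.11 (SE, adjusted p = 0.783). Its neighbour Peg10, a retrotransposon-derived gene, stayed at or below 1.53 CPM. Ube3a, a ubiquitin ligase imprinted in mouse neurons, had 36.2, 42.03, 46.5 and 22.96 CPM in WT and 21.7, 28.0, 32.6 and 30.5 in KO. Its WT replicate 4 lay among the KO hearts, and edgeR gave a log2 fold change of -0.39 ± 0.20 (SE, adjusted p = 0.777). Opposite-strand transcripts cover 27.3% of its exon bases. Inpp5f, an inositol phosphatase, measured 12.4, 12.6, 11.2 and 9.91 CPM in WT and 9.45, 10.6, 10.7 and 10.7 in KO, with overlapping groups and a log2 fold change of -0.16 ± 0.14 (SE, adjusted p = 0.850 in edgeR).

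The other members among the 8 highest per length were steady. Blcap had 37.2, 35.8, 41.6 and 35.9 CPM in WT and 46.3, 39.6, 37.8 and 38.6 in KO, with KO replicate 5 highest. Mcts2, a retrogene of the translation factor gene Mcts1, had 11.7, 12.9, 9.48 and 12.5 CPM in WT and 12.9, 9.86, 10.5 and 8.58 in KO, where the groups overlapped. Of the remaining tested members, Meg3 and Rian, non-coding RNAs of the Dlk1-Meg3 domain, had log2 fold changes of 0.01 ± 0.16 and 0.02 ± 0.20. Mirg, a miRNA host of the same domain, had -0.30 ± 0.47, which turned to 0.30 without WT replicate 2, the heart with 3.59 CPM. Impact, which restrains activation of the stress kinase Gcn2, stood at -0.00073. Gatm, Slc38a4, H13, Trappc9, Ndn, Copg2 and Mest lay between -0.18 and 0.08. Across the 29 tested members, WT replicate 2 was the highest or lowest of the 8 hearts for 12 and KO replicate 5 for 11, against 5 to 8 for each other heart. In 19 of the 29 the highest heart held less than 2 times the CPM of the lowest.

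Genes of a shared domain were compared across the 8 hearts on the log2 CPM scale. Of 31 pairs, 8 had at least 10 counts of both genes in every heart; Zrsr1 with Commd1 was set aside because the Zrsr1 values fall into separate sets. Of the 7 pairs tested, 0 passed after Benjamini-Hochberg adjustment. H13, a signal peptide peptidase, and Mcts2 in its intron gave Pearson's r = 0.762 (n = 8, exact permutation p = 0.0197, adjusted 0.130) and Spearman's rho = 0.881 (exact permutation p = 0.00724, adjusted 0.0507). Without KO replicates 5 and 8, the hearts farthest from the median of H13, r was 0.569. Both lie on the same strand, and the counts do not separate unspliced H13 RNA from Mcts2.

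For Igf2 and H19, which share enhancers, r was 0.722 (n = 8, exact permutation p = 0.0370, adjusted 0.130) and rho was 0.833 (exact permutation p = 0.0154, adjusted 0.0538). Leaving out WT replicate 2 and KO replicate 6, the hearts farthest from the median of Igf2, brought r to 0.476. Such a cut narrows the range of Igf2, which by itself tends to lower r. Without WT replicate 2 alone r was 0.640, and without KO replicate 6 alone it was 0.757. The other 5 pairs had r between -0.363 (Mest and Copg2, whose exons overlap on opposite strands) and 0.452 (Meg3 and Rian). Igf2r and Airn gave 0.450, which became -0.283 without WT replicates 2 and 3 and -0.0045 on deviations from the genotype means. On those deviations r was 0.775 for H13 and Mcts2 and 0.744 for Igf2 and H19, neither of which passed adjustment.

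**Figure D5:**
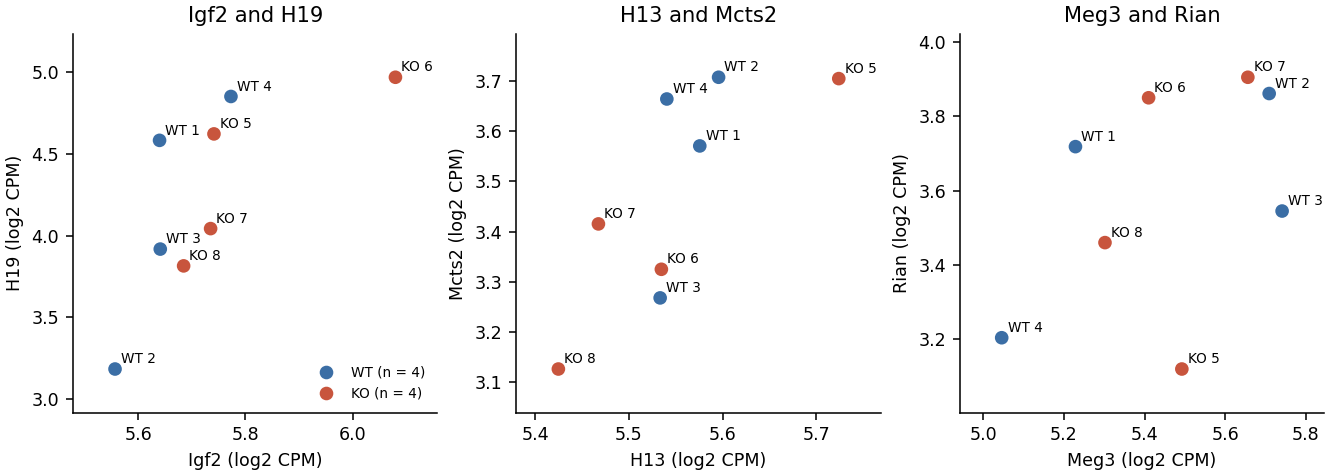
Log2 CPM of Igf2 against H19, H13 against Mcts2 and Meg3 against Rian, 1 labelled point per heart (4 WT, 4 KO). Both genes of the first pair are lowest in WT replicate 2 and highest in KO replicate 6, and r is 0.722, 0.762 and 0.452 from left to right, none of which passed adjustment.

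The 10 members left out by the filter had at most 11 counts in any heart. Usp29 and Magel2 had 0 counts in all 8 hearts, which allows up to 0.0296 CPM over the pooled libraries. Phlda2, a placental growth restrainer, had 1 count in all and Rasgrf1, a Ras exchange factor, had 3. Dlk1, a membrane protein of the fetal growth network, had 15 counts in all and Rtl1 of the same domain 16, while their maternal neighbour Meg3 stood at 32.9 to 53.3 CPM. Zim1 held 37 counts and Nnat 31. Nnat, a proteolipid gene inside Blcap, had 4, 11, 2 and 7 counts in WT and 3, 3, 0 and 1 in KO. For Zdbf2 there were 0, 0, 0 and 1 counts in WT and 4, 5, 3 and 1 in KO, which is at or near the 3 counts taken as the floor. Nap1l5 had 5, 10, 9 and 10 counts in WT and 4, 4, 7 and 5 in KO. These genes were not tested, and no fold change is given for them.

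Genes around the imprinted network showed no call either. Of 15 tested genes that keep or erase imprints, 0 passed, 8 were positive and 7 negative, and the median log2 fold change was 0.01. The 4 with the smallest p were Tet1 (-0.72), a dioxygenase that removes DNA methylation, Setdb1 (0.27), a histone H3 lysine methyltransferase, Dnmt1 (0.20), the maintenance methyltransferase, and Zfp445 (0.36), an imprint-binding zinc finger protein, with adjusted p of 0.782 or more in edgeR. Of 18 tested genes of IGF and insulin signalling 0 passed, 9 were positive and 9 negative, and the median was -0.02. Akt2 stood at 0.30, Igf1r at 0.41, Akt1 at 0.22 and Igf1 at -0.30, with a smallest adjusted p of 0.777 in edgeR.

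Of 30 tested genes among 49 other imprinted genes and neighbours, 0 passed, 17 were positive and 13 negative, and the median was 0.04. The smallest p-values were those of Pde10a (0.66), Herc3 (-0.32), Tfpi2 (-0.64) and Dcn (-0.27), with adjusted p of 0.725 or more in edgeR. Herc3, the host of Nap1l5, measured 20.0, 22.1, 19.1 and 20.97 CPM in WT and 17.1, 15.5, 15.1 and 18.1 in KO. All KO hearts thus lay below the WT hearts, as in 1.98% of all genes. The same held for Dcn, at 411 to 527 CPM in KO and 535 to 723 in WT. For Pde10a and Igf1r all KO hearts lay above the WT hearts, as in 2.14% of all genes. Pde10a had 4.34 to 7.61 CPM in KO and 2.94 to 4.26 in WT, and Igf1r 4.20 to 5.78 and 2.78 to 3.92. The parent genes Zrsr2, Nap1l1 and Mcts1 had log2 fold changes of -0.17, -0.17 and -0.12.

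Cell composition and depth were checked beside these values. Total counts ran from 11101901 to 14699949, and mitochondrially encoded genes took 19.4 to 29.2% of counts, most in WT replicate 1. Of 62 tested marker genes in 11 cell type lists, 0 passed. List medians ran from -0.999 (adipocyte, 2 genes tested) to 0.49 (blood, 9 genes, 8 positive). Adipocyte markers summed to 18.2 CPM in WT replicate 2, beside 3.10 to 7.87 in the other WT hearts and 3.92 to 5.25 in KO. The adipocyte marker Cfd alone had 12.9 CPM in that WT heart and 0.426 to 2.09 CPM in the others. Cardiomyocyte markers summed to 64437 to 79749 CPM, and atrial markers to 25.1 to 44.6 CPM. All 8 fibroblast markers were negative in KO, with a median of -0.21, and their summed level was 2297 to 2905 CPM in WT and 2166 to 2587 in KO. Their part in the values of imprinted genes was not tested.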

How the data were processed

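RNA was taken from 8 left ventricles with TRIzol and made into libraries with the TruSeq Stranded mRNA kit, per the labels' protocols. Reads were aligned to GRCm38 (mm10) with STAR 2.7.1a, per the submitters' processing notes. The authors deposited raw whole-number counts per Ensembl gene, without normalization, 1 column per heart. How reads were counted, whether by strand, and under which annotation release is not given in the sources used here, so levels of overlapping genes are uncertain. The labels name separate hearts, so each library counted as 1 replicate.

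The filter was filterByExpr with a minimum count of 10 and the scaling TMM; the test was the two-sided quasi-likelihood test of edgeR 4.0.16 in R 4.3.3, with genotype as its single term. P-values were adjusted by Benjamini-Hochberg over 13336 genes, and SE is the log2 fold change over the square root of F. CPM used TMM-scaled totals, log2 CPM a prior count of 2, and exon length the GENCODE M21 exon union. Symbols matched 36429 of 38293 identifiers. The 42 genes, their pairs and the context and marker lists were chosen with earlier results of these data known, so counts and medians describe them and no list was tested. Values in every heart are given for the 12 members with the smallest p and the 8 highest per length; other genes come from the context lists, up to 4 each by p, or are hosts. In simulated KO against WT data (13174 genes), changes were planted only in genes with a mean of at least 1 CPM. The share found was 26.9% of 67 at 1.5-fold, 77.6% of 67 at 2-fold and 98.5% of 66 at 4-fold, beside 6 false calls. Alternatives were DESeq2 1.42.0, limma-voom (limma 3.58.1), other scalings and filters, an adjusted p of 0.10 and each heart left out. Promoters are RefSeq sequences (GRCm38.p6).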

Additional observations from a re-analysis of the deposited data

Results flagged for a closer look

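In each genotype, each of the 29 tested members was checked for a heart set apart from the other 3 on the log2 CPM scale, by a gap that takes up most of the group's range. Such a heart appeared in 5 of 58 groups, and chance gives about 1 in 20. Zrsr1 stood at 4.346 in WT replicate 2, while the other WT hearts lay between 8.363 and 9.093; in KO its low level was shared by 2 of 4 hearts, which this check does not pick out. Igf2r stood at 6.797 in WT replicate 4, above 6.308 to 6.37 in the other WT hearts. KO replicate 6 was high for Igf2 (6.08, others 5.685 to 5.741) and for Trappc9, a TRAPP complex subunit (5.537, others 5.295 to 5.324). KO replicate 5 was low for Inpp5f (3.264, others 3.424 to 3.437). The cause was not tested for any of them.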

How the results depend on the processing

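Under 14 alternatives for each of the 29 tested members, 0 of 406 values were called, 362 kept their sign and 44 had the opposite sign; the latter came from 13 members with a log2 fold change of at most 0.30 in size. Without a filter 10 genes of the whole table were called and with DESeq2 11, against 3, and leaving out single hearts gave 2 to 6 (5 without WT replicate 1, 6 without WT replicate 4, 2 without KO replicate 6). Imprinted genes called stayed at 0 in each of these; pairs called stayed at 0 under other scalings, another prior count, deviations from the genotype means and single hearts left out. The median of the members ran from -0.09 without WT replicate 4 to 0.0098 without KO replicate 5. Scaling by library totals moved the median of all genes to -0.05 and turned Meg3 (-0.042), Gatm (-0.039), Gnas (-0.034) and Rian (-0.023). Impact became 0.0014 without a filter and 0.010 with limma-voom, which also gave Slc38a4 0.0034 and Gatm -0.080. With single hearts left out, the ranges that crossed 0 were -0.085 to 0.018 for H13, -0.10 to 0.16 for Rian, -0.035 to 0.057 for Gnas, -0.28 to 0.21 for Gatm, -0.11 to 0.11 for Meg3, -0.10 to 0.093 for Impact, -0.069 to 0.43 for H19, -0.085 to 0.27 for Grb10, -0.16 to 0.040 for Copg2, -0.48 to 0.12 for Peg10, -0.58 to 0.30 for Mirg, -0.17 to 0.019 for Ndn and -0.11 to 0.12 for Slc38a4. The cause was not tested. No paired analysis was possible because WT and KO hearts share no replicate number. Counts of overlapping genes depend on a strand setting that is not given in the sources used here, and 4 hearts per group left most 1.5-fold changes uncalled in simulated data.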
